A study of Mus musculus with 120 samples.

Results

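The subparafascicular area (SPA) and the parafascicular nucleus (PF) are neighbouring cell groups at the caudal end of the thalamus, and both send axons to the striatum. All libraries titled SPA and PF that were labelled by an AAV from the striatum were taken, which gave 4 SPA and 4 PF libraries of the 120 in the series. Each library is bulk RNA-seq of a pool of manually sorted fluorescent neurons from wildtype female mice, in which the retrograde virus rAAV2retro-GFP had been injected into the striatum. The SPA pools held 105 to 200 cells and the PF pools 48 to 188 cells, and the 8 libraries came from 6 recorded animals, 2 of which gave both an SPA and a PF library. The recorded ages were 125, 156 and 157 for 3 SPA libraries, with none for the other, and 125, 126, 156 and 157 for the PF libraries, in a unit that the table does not give. The records of animals are doubtful for SPA 1 and PF 2, which carry the name of 1 animal but ages of 125 and 126 and hours to freezing of 4.58 and 3.92. Same-numbered SPA and PF libraries share the recorded hours to freezing in all 4 pairs and the recorded age in all 3 pairs that have both. The position of the injection within the striatum is not given in the sources used here, and only neurons whose axons took up this virus entered the pools. Levels are given as CPM, the counts of a gene relative to the total of its library, scaled by TMM library sizes, where TMM is a scaling between libraries. A gene is called when its p, adjusted by Benjamini-Hochberg over 16527 genes, is under 0.05 in edgeR's quasi-likelihood test on all 120 libraries.

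Thalamostriatal neurons release glutamate onto the projection neurons and interneurons of the striatum. PF is the classical caudal intralaminar source of this input and reaches striatal spiny neurons and cholinergic interneurons. The subparafascicular region lies ventral to it, at the border with the midbrain, and in rodents is known for neurons that make calcitonin gene-related peptide and for auditory, somatosensory and visceral afferents. The comparison asks how far the expressed genes of these neighbours differ when tracer and target are the same.

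The SPA and PF libraries were of like depth, with total counts of 15775873 to 18361575 in SPA and 17687387 to 18958844 in PF, and 14509 to 15504 genes detected in SPA against 13790 to 14721 in PF. They were not amplified together. All 4 SPA libraries carry 1 amplification date that no other striatum-labelled group has, and all 4 PF libraries share a date with CL, CM and PCN (central lateral, central medial and paracentral nuclei), so amplification date and nucleus cannot be told apart in any SPA to PF value below. The share of uniquely mapped reads was 87.49 to 89.11% in SPA and 82.67 to 85.19% in PF, without overlap (exact two-sided permutation p = 0.02857, the smallest that 4 against 4 allows, adjusted p = 0.07347 over 18 library measures). Genes annotated as ribosomal RNA, together with Mir6236, Lars2 and the models Gm23935, Gm26917 and Gm42418, held 0.3433 to 1.133% of the counts in SPA and 5.3 to 6.309% in PF. This share followed the amplification date over the 7 striatum-labelled AAV groups, at 4.089 to 6.987% in the 4 groups of the PF date and 0.7388 to 1.449% in PVT and IMD (paraventricular and intermediodorsal nuclei), which have a date of their own.

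**Figure D1:**
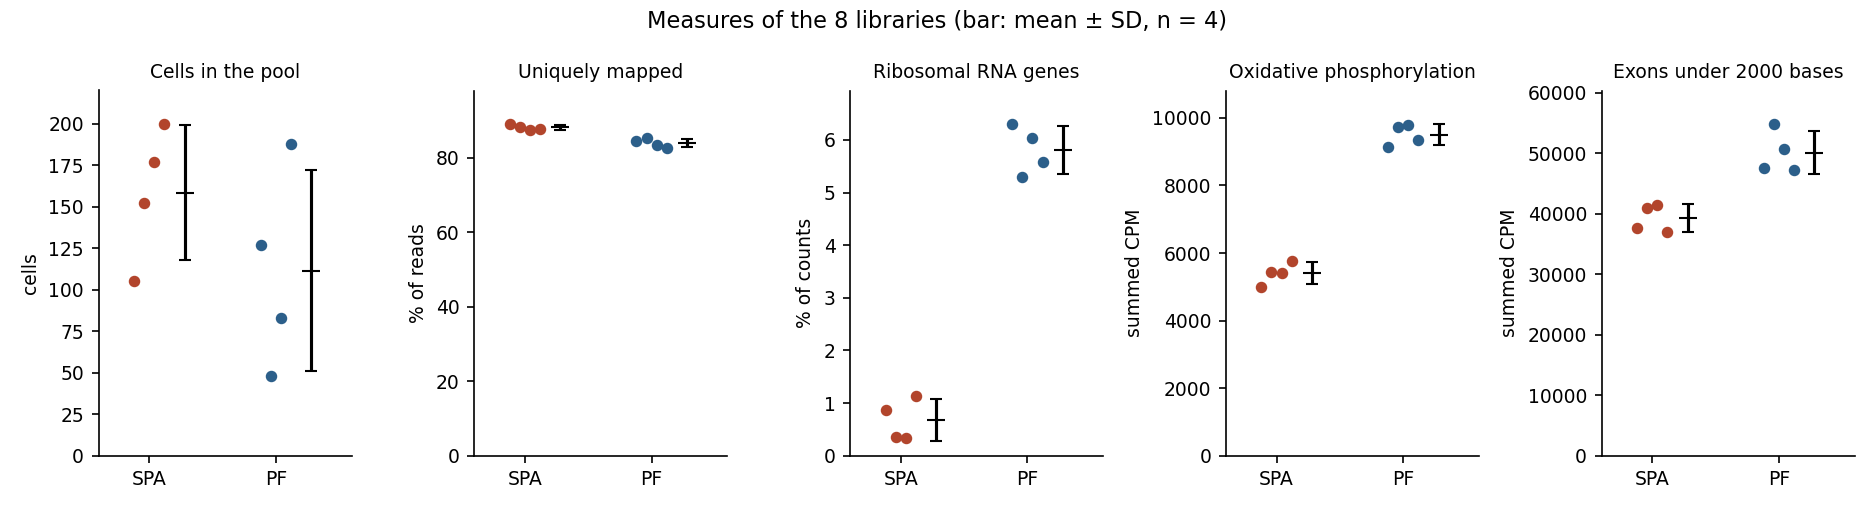
Cells per pool, uniquely mapped reads (% of reads), ribosomal RNA genes (% of counts), summed CPM of oxidative phosphorylation genes and summed CPM of genes with exons under 2000 bases, as points for each SPA (left) and PF (right) library with mean ± SD. SPA and PF do not overlap in the last 4 measures and overlap in the number of cells.

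The glutamatergic marker Slc17a6 and the thalamic marker Tcf7l2 were abundant in both groups. Slc17a6, a vesicular glutamate transporter of thalamic neurons, stood at 1635 ± 239 CPM in SPA and 1396 ± 95.4 CPM in PF (SD, n = 4 each). Slc17a7, another vesicular glutamate transporter, stood at 1.25 ± 1.77 CPM in SPA and 6.01 ± 5.15 CPM in PF. Its group means ran from 0.534 to 518 CPM elsewhere in the series. Tcf7l2, a transcription factor of the thalamic lineage, stood at 2365 ± 245 CPM in SPA and 1651 ± 146 CPM in PF, with all SPA libraries above all PF libraries (edgeR adjusted p = 0.632, and 0.011 in a fit of the 8 libraries alone). Gbx2, a homeobox factor of medial thalamic neurons, overlapped at 98.3 ± 22.7 CPM in SPA and 119 ± 21.3 CPM in PF. Calca, which encodes calcitonin gene-related peptide, was low in both, at 5.01, 6.14, 4.44 and 7.67 CPM in SPA, against 11.04, 2.18, 2.26 and 4.62 CPM in PF. The calcium-binding proteins parted the groups in opposite directions. Calb2, calretinin, had 369, 291, 276 and 247 CPM in SPA, against 118, 127, 101 and 92.1 CPM in PF. Calb1, calbindin, had 105, 152, 195 and 187 CPM in SPA, against 352, 255, 451 and 398 CPM in PF. Neither pair of ranges overlapped, and neither gene was called in the fit of all libraries (edgeR adjusted p = 0.951 for Calb2 and 0.707 for Calb1).

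Markers of other cells were mostly absent or low. Of 12 measured oligodendrocyte genes, Ermn and Sox10 had no read in the 8 libraries and the summed level was 32.9 to 47.04 CPM in SPA and 22.2 to 45.7 CPM in PF. Among 3 measured microglial genes C1qc was at 0 in all 8 libraries, and the sum was 5.90 to 13.03 CPM in SPA and 10.6 to 25.1 CPM in PF. Etv1 and Gpr151, used as habenular markers, summed to 149 to 273 CPM in SPA and 132 to 236 CPM in PF, with overlap. Pitx3 and Slc18a2, of midbrain dopamine neurons, summed to 8.32 to 14.8 CPM in SPA and 4.58 to 9.04 CPM in PF. The 3 astrocyte genes Slc1a2, Slc4a4 and Aldoc summed to 1688 to 2084 CPM in SPA and 2406 to 2621 CPM in PF, without overlap. Slc1a2 held most of these sums, at 1818 ± 173 CPM in SPA and 2436 ± 101 CPM in PF. Its group means were 413 to 3539 CPM elsewhere in the series, and the source of this spread was not tested. Aldoc averaged 33.9 CPM in SPA and 97.5 CPM in PF, and Slc4a4 0.962 and 4.44 CPM. The part of astrocyte RNA in the results was not tested, and in bulk pools fewer cells of a type and less RNA per cell cannot be told apart.

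Gprin3, Nptxr and Adcyap1, taken as markers of this comparison with earlier results known, differed without overlap and were not called in the fit of all libraries. Gprin3, a G protein regulated inducer of neurite outgrowth, had 224, 267, 329 and 179.5 CPM in SPA, against 78.9, 68.3, 80.3 and 90.8 CPM in PF. Nptxr, the neuronal pentraxin receptor of excitatory synapses, had 2322, 1252, 1373 and 1282 CPM in SPA, against 776, 964, 705 and 675 CPM in PF. Adcyap1, the peptide PACAP, had 3.69, 21.1, 10.9 and 23.8 CPM in SPA, against 60.5, 36.8, 146 and 102 CPM in PF. SPA lay above PF for Gprin3 and Nptxr and below it for Adcyap1 in every library. The edgeR adjusted p was 0.917, 0.676 and 0.894 for Gprin3, Nptxr and Adcyap1 in the fit of all libraries, which shares 1 spread per gene over 24 groups, and 0.000136, 0.00394 and 0.00524 in the fit of the 8 libraries alone.

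SPA and PF differed in 51 of 16527 genes, which is 0.309% of those tested. Of these, 7 were higher in SPA (0.0424%) and 44 were lower in SPA (0.266%), and 1078 genes had an unadjusted p under 0.05. The groups did not overlap for 48 of the 51 called genes, whereas over all genes tested every SPA library lay above every PF library in 1080 genes (6.53%) and below in 1210 (7.32%). The number of calls rested on the libraries in the fit: DESeq2 called 252 genes and the fit of the 8 libraries alone 1084 of 13261 (8.17%). That smaller fit tested 49 of the 51 called genes, called 48 of them and kept the direction of all 49. It and its blocked forms take this difference from the same 8 libraries, so their agreement is no independent support. Its values are given below beside those of the fit of all libraries. Of the 124 genes named that passed the 8-library fit, all 124 also passed with the replicate number as a block, and 101 passed with the recorded animal as a block. The animal block compares only the 4 libraries of the 2 animals recorded in both groups, with 1 residual degree of freedom. The 23 genes that did not pass it were the called genes Pcdh9, Scn1a and Tmem108, and the 20 uncalled genes Tcf7l2, Chrnb2, Oprl1, Nmbr, Pth2r, Kcnq5, Kcnip1, Hcn2, Grin2c, Grik1, Gabrd, Rab3a, Sv2c, Bdnf, Rorb, Satb1, Ndufa4, Nefh, Tubb4a and Slc1a2, with edgeR adjusted p of 0.0525 to 0.398. The called genes were also set against the amplification date. They were chosen for a difference between SPA and PF, so their shares and those over all genes tested are not a like comparison. In 33 of the 44 genes lower in SPA, the means of all 4 groups of the PF date lay above those of IMD and PVT as well as of SPA, and over all genes tested the 4 means lay above IMD and PVT in 15.5% and above all 3 in 6.04%. In 3 of the 7 genes higher in SPA, those 4 means lay below SPA, IMD and PVT, against 978 of the 16527 genes tested. The date, and the position of these nuclei in the thalamus, cannot be told apart as sources of these patterns.

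The 7 genes higher in SPA were Dlk1, Gpr26, Cdh12, Pcdh10, Arhgap20, Astn1 and Gda. The largest difference belonged to Dlk1 (ENSMUSG00000040856.17, mm10 chromosome 12, 109452823 to 109463336), an imprinted transmembrane protein of the Notch ligand family that is known from midbrain dopamine neurons and the developing hypothalamus. Dlk1 had 143, 23.5, 48.4 and 6.02 CPM in SPA, against 0, 0, 0 and 0 CPM in PF. No PF library had a read, and SPA was at least 1459-fold higher against a floor of 3 counts over the 4 PF libraries together (edgeR adjusted p = 0.037). The 4 SPA libraries differed among themselves, with SPA 1 highest and SPA 4 lowest. Over the 7 striatum-labelled AAV groups Dlk1 was also counted in IMD (2.36 CPM) and PVT (1.96 CPM) and was at 0 in PCN, CM and CL.

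To give the sequence at the start of the gene with the largest difference, and of Cck, the peptide gene described below that was lower in SPA, their promoter windows were read from RefSeq (GRCm38.p6, the assembly of mm10), 250 bases before to 50 after the start, 5′ to 3′ on the strand of the gene. They are chr12:109452573-109452872 on the plus strand and chr9:121495645-121495944 on the minus strand.
Dlk1: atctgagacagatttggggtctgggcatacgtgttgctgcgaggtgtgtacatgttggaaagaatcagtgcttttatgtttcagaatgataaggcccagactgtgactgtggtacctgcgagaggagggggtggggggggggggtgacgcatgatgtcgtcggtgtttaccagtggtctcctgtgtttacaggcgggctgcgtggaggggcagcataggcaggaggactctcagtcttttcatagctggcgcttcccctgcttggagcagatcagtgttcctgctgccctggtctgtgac
Cck: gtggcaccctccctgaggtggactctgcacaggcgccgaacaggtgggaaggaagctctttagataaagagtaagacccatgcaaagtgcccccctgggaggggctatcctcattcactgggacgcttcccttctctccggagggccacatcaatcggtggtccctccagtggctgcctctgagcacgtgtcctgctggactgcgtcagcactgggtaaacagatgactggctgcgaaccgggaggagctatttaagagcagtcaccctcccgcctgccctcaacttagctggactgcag
No letters are in capitals, since none of the motifs searched on both strands was found. These were TATAAA, which 13.6% of 32851 promoter windows hold. The second was CCAAT, held by 37.4%. The last was GGGCGG, held by 35.7%. GC content was 55.7% for Dlk1 and 59.3% for Cck, against a median of 52.7% over all windows, and CpG counts were 9 and 10 against a median of 7.

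Gpr26, an orphan G protein-coupled receptor of the brain, had 37.2, 23.4, 32.0 and 6.87 CPM in SPA, against 0, 0, 0.103 and 0.208 CPM in PF. Gpr26 differed by 8.22 ± 1.82 (SE) on the log2 scale (edgeR adjusted p = 0.0101). PF held a handful of reads in 2 of its libraries, while every SPA library was well above them. Gpr26 was also present in IMD, at a mean of 23.7 CPM, and in CM, at 13.7 CPM. Cdh12, a type II cadherin, had 80.4, 114, 128 and 65.2 CPM in SPA, against 14.8, 2.70, 9.78 and 12.8 CPM in PF. Cdh12 differed by 3.27 ± 0.48 (SE) on the log2 scale (edgeR adjusted p = 1.64e-06). Its groups were far apart, and the 5 other striatum-labelled groups averaged 8.35 to 32.5 CPM, below SPA. Pcdh10, a delta protocadherin used in axon outgrowth, had 353, 529, 481 and 343 CPM in SPA, against 138, 72.4, 169.8 and 159 CPM in PF. Pcdh10 differed by 1.66 ± 0.32 (SE) on the log2 scale (edgeR adjusted p = 0.00077). Arhgap20, a GTPase-activating protein, had 63.6, 101, 109.6 and 59.7 CPM in SPA, against 22.4, 22.0, 22.5 and 27.5 CPM in PF. Arhgap20 differed by 1.82 ± 0.42 (SE) on the log2 scale (edgeR adjusted p = 0.0165). The least different of them, Astn1, which acts in the migration of neurons along glia, had 786, 656, 906 and 599.6 CPM in SPA, against 462, 349, 395 and 417 CPM in PF. Astn1 differed by 0.86 ± 0.21 (SE) on the log2 scale (edgeR adjusted p = 0.0367). The remaining called gene, Gda, guanine deaminase, rested on a single library, with 0.101, 0, 13.5 and 0.517 CPM in SPA, against 0, 0, 0 and 0 CPM in PF.

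**Figure D2:**
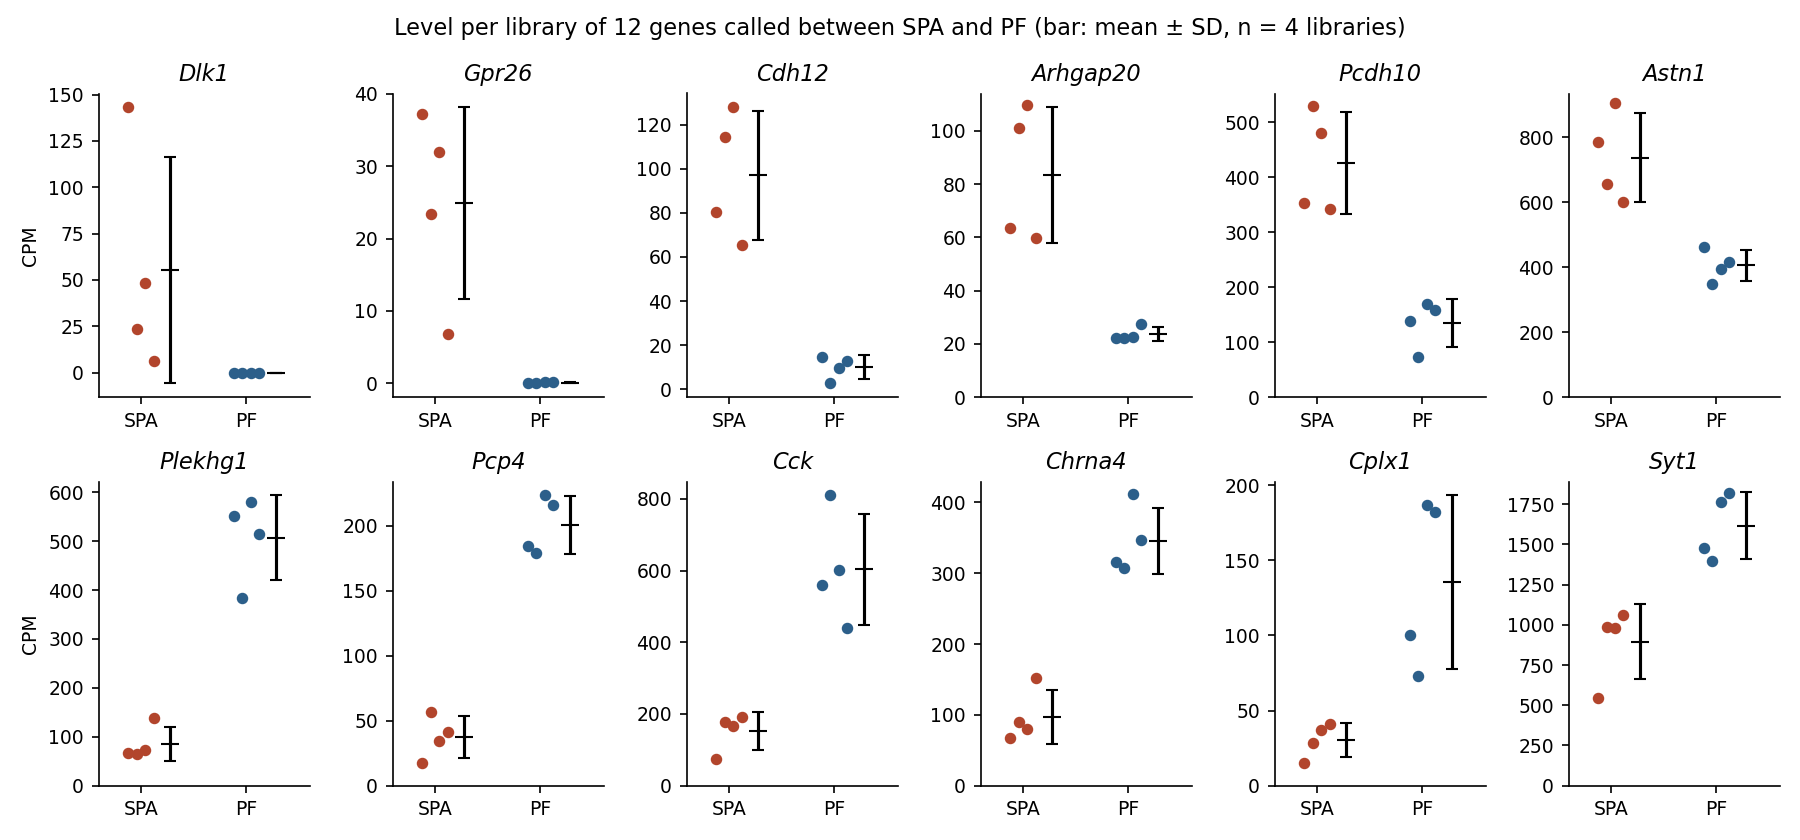
CPM of 12 called genes in each SPA (left) and PF (right) library, with mean ± SD of 4 libraries. The upper 6 genes are higher in SPA and the lower 6 are lower in SPA, and the points of the groups do not overlap in any panel.

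The 44 genes lower in SPA included Cck, Pcp4, Chrna4, Cplx1, Syt1, Scn1a and Atp2b2. Fras1, an extracellular matrix protein of basement membranes, had the largest negative fold change, with 0.101, 0.193, 0 and 0 CPM in SPA, against 7.80, 0.284, 22.3 and 3.48 CPM in PF (log2 fold change -6.68 ± 0.91 (SE), edgeR adjusted p = 2.62e-07). Its level was too low to be tested in the 8-library fit. Cck, cholecystokinin, the peptide of many thalamic and cortical projection neurons, had 75.5, 177, 166 and 192 CPM in SPA, against 559.7, 810.4, 602 and 439.7 CPM in PF. Cck differed by -1.98 ± 0.41 (SE) on the log2 scale (edgeR adjusted p = 0.00382). It was the only called member among 14 measured neuropeptide genes. Pcp4, a small modulator of calmodulin, had 17.2, 56.7, 34.1 and 41.3 CPM in SPA, against 185, 179, 223 and 216 CPM in PF. Pcp4 differed by -2.43 ± 0.36 (SE) on the log2 scale (edgeR adjusted p = 1.64e-06). Its lowest PF library was far above its highest SPA library. Plekhg1, a guanine nucleotide exchange factor, had the smallest p of all genes, with 67.1, 64.3, 72.4 and 138 CPM in SPA, against 551, 383, 579 and 515 CPM in PF (log2 fold change -2.57 ± 0.27 (SE), edgeR adjusted p = 3.98e-12). SPA 4 stood apart from the other SPA libraries in it and was still below every PF library. Chrna4, the nicotinic acetylcholine receptor subunit of the high-affinity receptor, had 67.4, 90.3, 79.5 and 152 CPM in SPA, against 316, 308, 411 and 347 CPM in PF. Chrna4 differed by -1.83 ± 0.30 (SE) on the log2 scale (edgeR adjusted p = 2.45e-05). Its partner Chrnb2 stood at 48.7 ± 15.5 CPM in SPA and 108 ± 26.3 CPM in PF and was not called (edgeR adjusted p = 0.011 in the 8-library fit).

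Both called genes of the release machinery were lower in SPA. Cplx1, complexin 1, which clamps and drives vesicle fusion, had 14.97, 28.3, 37.3 and 41.0 CPM in SPA, against 100.4, 72.8, 187 and 182 CPM in PF. Cplx1 differed by -2.16 ± 0.34 (SE) on the log2 scale (edgeR adjusted p = 1.11e-05). Syt1, the calcium sensor of fast release, had 548, 987, 979.6 and 1059.97 CPM in SPA, against 1477, 1399, 1766 and 1821 CPM in PF. Syt1 differed by -0.85 ± 0.17 (SE) on the log2 scale (edgeR adjusted p = 0.00115). Lgi3, a secreted ligand of ADAM-family receptors at synapses and axons, was lower in SPA, at 6.93 ± 3.59 CPM in SPA and 36.9 ± 1.91 CPM in PF (edgeR adjusted p = 0.00989). Shisa6, an auxiliary subunit of AMPA receptors, was lower in SPA, at 13.1 ± 8.47 CPM in SPA and 57.0 ± 9.96 CPM in PF (edgeR adjusted p = 0.0291). In all 4 of these genes every SPA library was below every PF library. Scn1a, a sodium channel, was lower in SPA, at 160.2 ± 15.6 CPM in SPA and 309 ± 50.9 CPM in PF (edgeR adjusted p = 0.0367). Atp2b2, a plasma membrane calcium pump, was lower in SPA, at 250.3 ± 55.1 CPM in SPA and 635 ± 73.0 CPM in PF (edgeR adjusted p = 2.62e-07). Scn1a and Atp2b2 act in how a neuron fires and clears calcium, and neither overlapped between the groups. Slc24a2, a sodium-calcium exchanger, was lower in SPA, at 158 ± 57.9 CPM in SPA and 462 ± 114 CPM in PF (edgeR adjusted p = 0.000169). Prkcd, protein kinase C delta, was lower in SPA, at 8.43 ± 6.18 CPM in SPA and 65.2 ± 37.6 CPM in PF (edgeR adjusted p = 0.000361). Prkcd overlapped between the groups, with 16.8 CPM in SPA 4 and 13.5 CPM in PF 2. Ptk2b, a calcium-dependent tyrosine kinase, was lower in SPA, at 30.1 ± 22.6 CPM in SPA and 126 ± 19.9 CPM in PF (edgeR adjusted p = 0.0113). Pde7b, a cAMP phosphodiesterase, was lower in SPA, at 55.1 ± 23.2 CPM in SPA and 153 ± 47.0 CPM in PF (edgeR adjusted p = 0.0224). Both Ptk2b and Pde7b were highest within SPA in SPA 4, and neither overlapped with PF. Rgs16, a brake on G protein signalling, was lower in SPA, at 86.2 ± 17.6 CPM in SPA and 248 ± 23.6 CPM in PF (edgeR adjusted p = 0.00397). Rasgrp1, a Ras activator, was lower in SPA, at 254 ± 45.8 CPM in SPA and 579.9 ± 151 CPM in PF (edgeR adjusted p = 0.000361). Inpp5j, a phosphoinositide phosphatase, was lower in SPA, at 13.3 ± 6.61 CPM in SPA and 62.3 ± 12.9 CPM in PF (edgeR adjusted p = 0.0214). Rgs16, Rasgrp1 and Inpp5j did not overlap between the groups.

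The other genes lower in SPA included Sema5a, Tenm2, Pcdh9, Epha6, Jam2, Lynx1 and Stmn3. Sema5a, a guidance semaphorin, had 84.7, 163, 189 and 123.05 CPM in SPA, against 443, 363, 472 and 424 CPM in PF. Sema5a differed by -1.61 ± 0.37 (SE) on the log2 scale (edgeR adjusted p = 0.0174). Tenm2, a teneurin, was lower in SPA, at 119 ± 27.6 CPM in SPA and 272 ± 78.6 CPM in PF (edgeR adjusted p = 0.0259). Pcdh9, a protocadherin, was lower in SPA, at 179 ± 30.3 CPM in SPA and 367 ± 81.0 CPM in PF (edgeR adjusted p = 0.0252). Sema5a, Tenm2 and Pcdh9 were below PF in every SPA library. Epha6, an ephrin receptor, was lower in SPA, at 19.1 ± 10.6 CPM in SPA and 79.6 ± 47.6 CPM in PF (edgeR adjusted p = 0.0255). Jam2, a junctional adhesion molecule, was lower in SPA, at 20.3 ± 12.9 CPM in SPA and 122.51 ± 14.8 CPM in PF (edgeR adjusted p = 0.0012). Lynx1, a toxin-like brake on nicotinic receptors, was lower in SPA, at 131 ± 34.5 CPM in SPA and 356 ± 53.4 CPM in PF (edgeR adjusted p = 0.00109). Stmn3, a tubulin-binding stathmin, was lower in SPA, at 95.1 ± 5.47 CPM in SPA and 329 ± 35.7 CPM in PF (edgeR adjusted p = 0.0367). Epha6 overlapped between the groups, and Jam2, Lynx1 and Stmn3 did not. Sema5a and Epha6 were the called members of 52 measured axon guidance genes. Lef1, the Wnt-dependent transcription factor, had 52.6, 42.8, 60.0 and 113 CPM in SPA, against 189, 179.7, 194 and 191 CPM in PF. Lef1 differed by -1.49 ± 0.34 (SE) on the log2 scale (edgeR adjusted p = 0.0124), and was the only called member of 41 measured diencephalic transcription factors. Adarb2, a brain-specific member of the RNA-editing deaminase family, was lower in SPA, at 6.35 ± 5.24 CPM in SPA and 32.6 ± 18.1 CPM in PF (edgeR adjusted p = 0.0291). Slc25a5, the mitochondrial ADP/ATP carrier, was lower in SPA, at 23.4 ± 11.02 CPM in SPA and 122.67 ± 5.99 CPM in PF (edgeR adjusted p = 0.0012). Lef1, Adarb2 and Slc25a5 did not overlap between the groups. Arap2, a regulator of small GTPases, was lower in SPA, at 12.3 ± 7.14 CPM in SPA and 69.6 ± 10.8 CPM in PF (edgeR adjusted p = 0.000552). Tmem108, a transmembrane protein of dentate granule cells, was lower in SPA, at 1.75 ± 1.22 CPM in SPA and 14.6 ± 7.67 CPM in PF (edgeR adjusted p = 0.0259). The remaining genes lower in SPA were Ubb, Hspa8, Ptpn3, Patj, Igsf9b, Sez6l, Tanc1, Pls3, Pdp1 and the model Gm23935. Ubb, a polyubiquitin gene, was lower in SPA, at 161 ± 23.8 CPM in SPA and 399 ± 38.2 CPM in PF (edgeR adjusted p = 0.0353). Hspa8, a constitutive chaperone, was lower in SPA, at 637 ± 94.1 CPM in SPA and 1159.98 ± 108 CPM in PF (edgeR adjusted p = 0.042). Ptpn3, a tyrosine phosphatase, was lower in SPA, at 153 ± 45.8 CPM in SPA and 400.3 ± 43.2 CPM in PF (edgeR adjusted p = 0.000162). The 18S ribosomal RNA gene Rn18s-rs5 had 3898, 1746, 1602 and 5402 CPM in SPA, against 34414, 32112, 34693 and 31190.2 CPM in PF. Rn18s-rs5 differed by -3.39 ± 0.64 (SE) on the log2 scale (edgeR adjusted p = 0.00077), and Mir6236 and Lars2 had 132 against 4226 CPM and 522 against 2829 CPM as SPA and PF means. Their means were also lower in IMD, which was amplified on another date, at 3516, 1422 and 378 CPM.

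Among the 51 calls, 19 held whichever of the 8 libraries was left out, and none changed direction. Cdh12 and Pcdh10 were among the 19, as were Plekhg1, Pcp4, Chrna4, Cplx1, Atp2b2, Slc24a2, Rasgrp1, Ptpn3, Lynx1, Pls3, Arap2, Jam2, Slc25a5, Prkcd, Fras1, Mir6236 and Rn18s-rs5. The number of calls fell to between 23 and 48 when 1 library was left out, with 24 without SPA 1, 26 without SPA 2, 25 without SPA 3, 33 without PF 1 and 23 without PF 3. The Cck call was lost without SPA 1 alone (edgeR adjusted p = 0.08967), as was the Syt1 call (edgeR adjusted p = 0.08482), and that of Rgs16 without SPA 3 alone (edgeR adjusted p = 0.06554). The Gpr26 call was lost without PF 1, PF 2 or PF 3, with edgeR adjusted p up to 0.07419. Dlk1 lost its call in each repeat except that without SPA 4, with edgeR adjusted p up to 0.1814, while it had no read in PF. The calls of Patj, Stmn3 and Ubb were lost in all 8 repeats, with edgeR adjusted p up to 0.3271, 0.1867 and 0.216. Those of Astn1, Hspa8, Scn1a and Tenm2 were lost in 7, with edgeR adjusted p up to 0.2996, 0.2952, 0.2275 and 0.3173. Those of Gda, Lars2, Pcdh9 and Pdp1 were lost in 6, those of Arhgap20, Epha6, Inpp5j, Sema5a, Shisa6, Tanc1 and Tmem108 in 5, and those of Adarb2, Igsf9b, Lef1, Pde7b and Sez6l in 4, with edgeR adjusted p up to 0.9234 for Gda and 0.3791 for Epha6. Gm23935 and Ptk2b lost their calls in 3 and Lgi3 in 2. Within SPA, SPA 4 was the library nearest to PF in 6 of the 7 genes higher in SPA and in 33 of the 44 lower in SPA. Within PF, PF 2 was the library nearest to SPA in 26 of the 44 lower genes and in 0 of the 7 higher ones. The shares over all genes tested were not counted. SPA 4 was the largest pool, with 200 cells, and PF 2 the smallest, with 48 cells. SPA 4 also had the highest share of ribosomal RNA genes within SPA (1.133%), and PF 2 the lowest within PF (5.3%). Neither measure was tested as a source of these counts.

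SPA and PF were then each set against the mean of PVT, IMD, PCN, CM and CL, the 5 other groups labelled by AAV from the striatum. SPA was higher in 685 genes (4.14%) and lower in 207 (1.25%), and PF was higher in 148 (0.896%) and lower in 2 (0.0121%). PF shares its amplification date with PCN, CM and CL among these groups, and SPA shares its date with none of the 5. The numbers of calls of SPA and of PF therefore carry the date unequally, and its part in them was not tested. The contrasts share those 5 groups, so their values for the called genes are set side by side. The called genes were chosen on the same SPA and PF libraries, so the counts below are no independent support. Of the 44 genes lower in SPA than in PF, SPA was called lower than the 5 groups in 36, and PF was called higher than them in 5. The mean of SPA lay below all 5 other means in 32 of the 44, and the mean of PF above all 5 in 7. The share of all genes tested in such positions was not counted. For Pcp4 the log2 difference from the 5 groups was -2.75 in SPA (edgeR adjusted p = 8.1e-10) and -0.33 in PF (edgeR adjusted p = 1). For Cck it was -2.11 in SPA (edgeR adjusted p = 4.89e-05) and -0.13 in PF (edgeR adjusted p = 1). Plekhg1 moved apart on both sides, by -1.42 in SPA (edgeR adjusted p = 5.42e-06) and 1.15 in PF (edgeR adjusted p = 1.88e-05). Sema5a and Lef1 differed from the 5 groups in PF, by 1.02 and 0.92 (edgeR adjusted p = 0.0345 and 0.037), with SPA at -0.59 and -0.57 (edgeR adjusted p = 0.284 and 0.232). Of the 7 genes higher in SPA, 5 were also called higher in SPA against the 5 groups, and Pcdh10 was called lower in PF against them (-1.29, edgeR adjusted p = 0.00405).

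**Figure D3:**
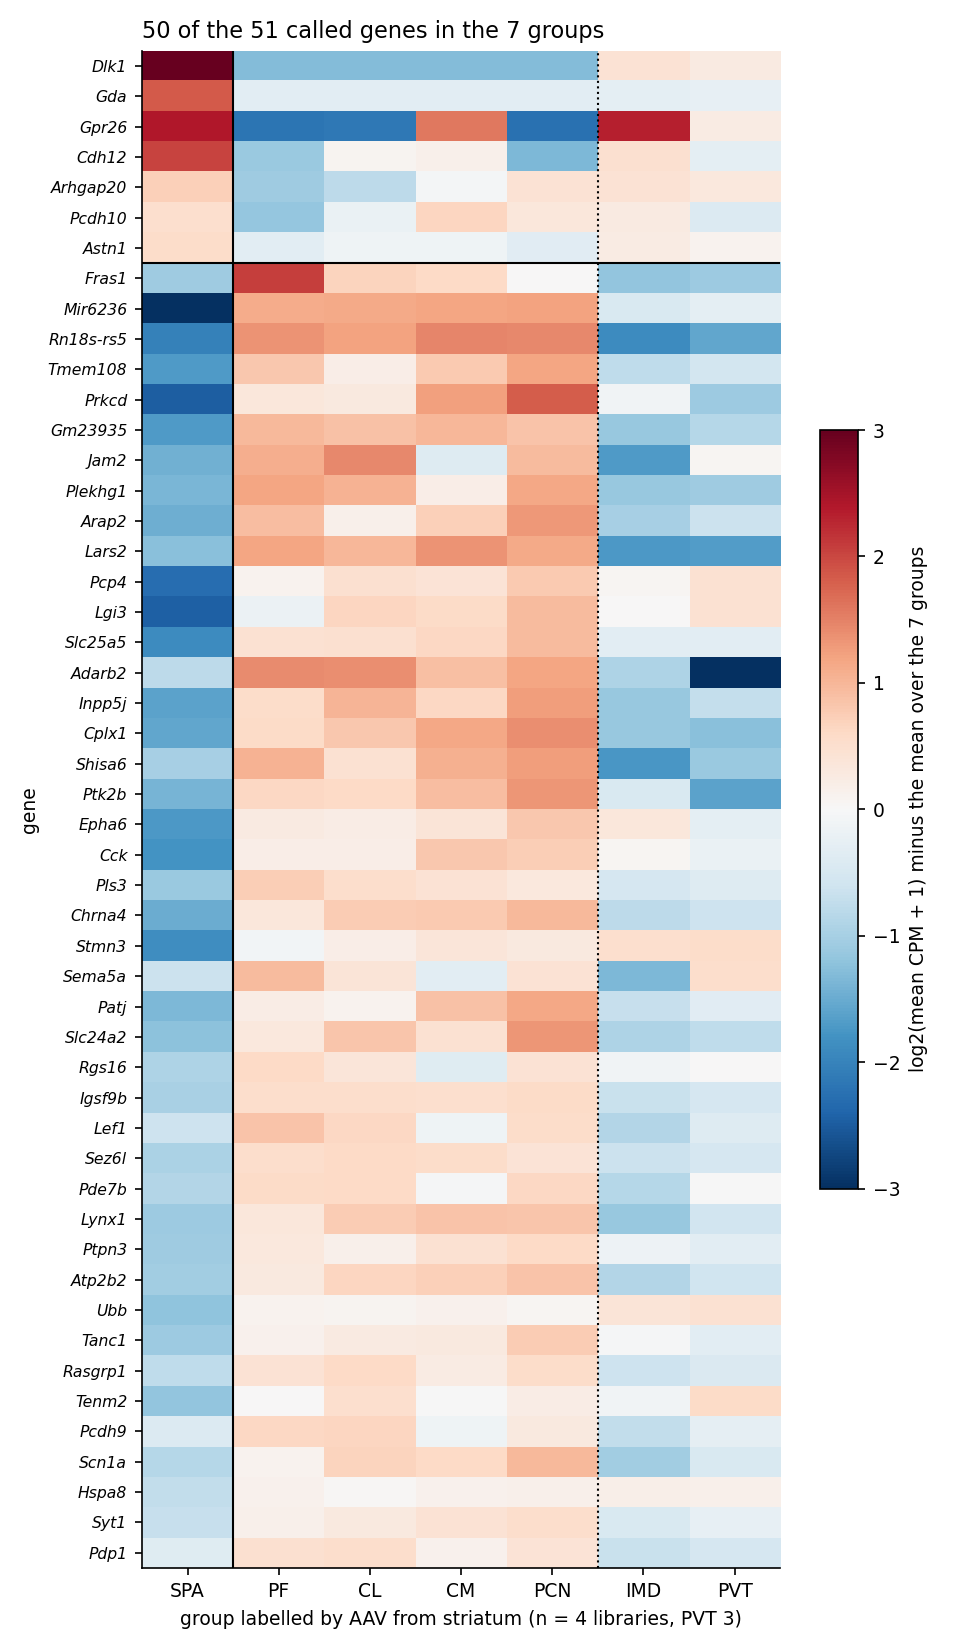
Called genes (rows, 50 of the 51) in the 7 groups labelled by AAV from the striatum (columns, SPA left, PF next), as log2(mean CPM + 1) minus the mean over the 7 groups. The solid line across parts the 7 genes higher in SPA from 43 of the 44 lower in SPA, and the 4 columns PF to PCN share an amplification date. In 33 of the 44 lower genes those 4 means lie above SPA, IMD and PVT.

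By role, calls in the fit of all libraries were few, so the members of each list are described by their count in the 8-library fit, where 3.18% of genes passed with SPA above PF and 4.99% with SPA below PF. Median log2 differences are from the fit of all libraries, in which the median over all genes tested was 0.034. Lists were drawn up with earlier results of these data known, so a count describes the list and does not test it.

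Of 23 peptide receptor genes measured, 0 were called in the fit of all libraries, and of 21 in the 8-library fit 6 passed with SPA above PF and 3 with SPA below (median log2 0.09). The oxytocin receptor Oxtr had 47.2, 48.1, 82.1 and 26.2 CPM in SPA, against 5.28, 2.99, 1.34 and 9.80 CPM in PF (edgeR adjusted p = 0.00105 in the 8-library fit). Every SPA library was above every PF library for Oxtr. The neurokinin B receptor Tacr3 had 31.9, 76.0, 67.0 and 51.7 CPM in SPA, against 7.80, 6.54, 15.5 and 21.6 CPM in PF (edgeR adjusted p = 0.00354 in the 8-library fit). The kappa opioid receptor Oprk1 had 118, 85.1, 110.5 and 56.0 CPM in SPA, against 36.5, 9.81, 34.5 and 24.7 CPM in PF (edgeR adjusted p = 0.00507 in the 8-library fit). The nociceptin receptor Oprl1 had 24.0, 20.4, 14.5 and 23.6 CPM in SPA, against 52.8, 31.2, 61.3 and 55.5 CPM in PF (edgeR adjusted p = 0.0127 in the 8-library fit). Every SPA library was above PF for Tacr3 and Oprk1 and below PF for Oprl1. The neuropeptide Y receptor Npy2r stood at 94.7 ± 19.9 CPM in SPA and 33.7 ± 15.7 CPM in PF (edgeR adjusted p = 0.00485 in the 8-library fit). The neuromedin B receptor Nmbr stood at 148 ± 5.33 CPM in SPA and 95.3 ± 20.2 CPM in PF (edgeR adjusted p = 0.0373 in the 8-library fit). Ramp3, which turns calcitonin-like receptors to adrenomedullin and amylin, had 9.76, 6.19, 8.09 and 19.7 CPM in SPA, against 65.1, 41.6, 68.8 and 71.0 CPM in PF (edgeR adjusted p = 0.000604 in the 8-library fit), with SPA below PF throughout. The parathyroid hormone 2 receptor Pth2r stood at 7.92 ± 2.27 CPM in SPA and 24.2 ± 4.49 CPM in PF (edgeR adjusted p = 0.0156 in the 8-library fit). Among 25 amine and acetylcholine receptors Chrna4 alone was called, and 2 passed with SPA above and 3 with SPA below in the 8-library fit of 23. The muscarinic receptor Chrm2 stood at 81.1 ± 21.4 CPM in SPA and 30.5 ± 21.4 CPM in PF (edgeR adjusted p = 0.0298 in the 8-library fit). The adrenergic receptor Adra1b stood at 37.4 ± 13.1 CPM in SPA and 109.6 ± 15.2 CPM in PF (edgeR adjusted p = 0.00157 in the 8-library fit).

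Slc17a8, which encodes the vesicular glutamate transporter VGLUT3, had 32.3, 48.4, 58.5 and 28.7 CPM in SPA, against 0.476, 1.99, 1.70 and 1.40 CPM in PF (edgeR adjusted p = 4.21e-05 in the 8-library fit). The SPA libraries were all above 28 CPM and the PF libraries all below 2 CPM. The vesicular zinc transporter Slc30a3 had 58.8, 22.7, 38.7 and 39.5 CPM in SPA, against 10.6, 2.23, 4.63 and 6.64 CPM in PF (edgeR adjusted p = 0.00184 in the 8-library fit), also without overlap. Neither was called in the fit of all libraries (edgeR adjusted p = 0.52 and 0.9). Slc17a8 was also called in SPA against the 5 other groups (log2 difference 3.99, edgeR adjusted p = 0.00919), with PF at -0.92 (edgeR adjusted p = 1). Slc17a8 was not highest in SPA among the 7 groups, since IMD averaged 59.1 CPM, and the lowest of the 5, PCN, averaged 0.0108 CPM.

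Ion channel genes lay on both sides. Of 33 voltage-gated potassium channel genes in the 8-library fit 3 passed with SPA above and 9 with SPA below. Kcnf1, an electrically silent subunit, stood at 14.7 ± 4.95 CPM in SPA and 69.0 ± 30.1 CPM in PF (edgeR adjusted p = 0.000774 in the 8-library fit). The cytoplasmic subunit Kcnab2 stood at 35.2 ± 8.10 CPM in SPA and 101 ± 5.92 CPM in PF (edgeR adjusted p = 0.00051 in the 8-library fit). Kcnq5, of the M-current family, stood at 85.5 ± 17.02 CPM in SPA and 42.0 ± 13.6 CPM in PF (edgeR adjusted p = 0.0254 in the 8-library fit). Among inward rectifiers and leak channels, Kcnj5, a G protein-gated channel subunit, had 91.8, 37.3, 61.8 and 30.2 CPM in SPA, against 8.75, 2.42, 5.35 and 7.73 CPM in PF (edgeR adjusted p = 0.000503 in the 8-library fit). Hcn2, a pacemaker channel of thalamic neurons, stood at 4.55 ± 1.36 CPM in SPA and 16.1 ± 3.98 CPM in PF (edgeR adjusted p = 0.0239 in the 8-library fit). Of 13 sodium channel genes in that fit, 3 passed with SPA above and 2 with SPA below. Scn9a had 112, 109, 159 and 79.8 CPM in SPA, against 42.2, 54.0, 50.7 and 37.5 CPM in PF (edgeR adjusted p = 0.0022 in the 8-library fit). Scn3a stood at 249 ± 37.0 CPM in SPA and 131 ± 11.98 CPM in PF (edgeR adjusted p = 0.00176 in the 8-library fit). The alpha subunits Scn9a and Scn3a were above PF in every SPA library, and the alpha subunit Scn1a was below it. Of 22 calcium channel genes 3 passed with SPA above and 2 with SPA below. Cacna1e, the R-type channel, had 309, 216, 325 and 205 CPM in SPA, against 66.2, 100.3, 96.7 and 48.9 CPM in PF (edgeR adjusted p = 0.000378 in the 8-library fit). Cacng5, a transmembrane AMPA receptor regulator of the gamma family, had 20.1, 18.9, 12.2 and 27.8 CPM in SPA, against 82.1, 72.2, 90.9 and 79.6 CPM in PF (edgeR adjusted p = 0.000284 in the 8-library fit). Cacna1e was called in SPA against the 5 other groups (log2 difference 2.19, edgeR adjusted p = 0.00284).

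Receptor subunits for glutamate and GABA lay on both sides. Of 24 glutamate receptor genes, 5 passed with SPA above and 6 with SPA below in the 8-library fit. Grin2d, an NMDA subunit of diencephalic neurons, had 158, 153, 138 and 97.9 CPM in SPA, against 54.7, 58.2, 42.3 and 36.6 CPM in PF (edgeR adjusted p = 0.000603 in the 8-library fit). The obligatory subunit Grin1 had 156, 112, 86.8 and 163 CPM in SPA, against 261, 322, 286 and 246 CPM in PF (edgeR adjusted p = 0.00214 in the 8-library fit). Grin2d lay above PF in every SPA library and Grin1 below. The AMPA subunit Gria1 stood at 106 ± 18.4 CPM in SPA and 247 ± 54.1 CPM in PF (edgeR adjusted p = 0.000716 in the 8-library fit). Grin2c stood at 1.26 ± 1.31 CPM in SPA and 13.0 ± 2.67 CPM in PF (edgeR adjusted p = 0.0361 in the 8-library fit). Grik1 stood at 64.5 ± 17.5 CPM in SPA and 29.8 ± 8.60 CPM in PF (edgeR adjusted p = 0.0212 in the 8-library fit). None of these 3 overlapped, with SPA below PF for Gria1 and Grin2c and above it for Grik1. Of 20 GABA and glycine receptor genes 5 passed with SPA above and 3 with SPA below. Gabrg3 had 102, 139, 229.9 and 91.3 CPM in SPA, against 29.0, 30.2, 20.3 and 36.9 CPM in PF (edgeR adjusted p = 0.000266 in the 8-library fit). Gabrg1 had 102, 113, 133 and 109.8 CPM in SPA, against 36.5, 46.0, 38.3 and 36.8 CPM in PF (edgeR adjusted p = 0.000222 in the 8-library fit). Both gamma subunits were above PF in every SPA library. Gabrd, the extrasynaptic delta subunit, had 14.3, 2.47, 6.23 and 8.56 CPM in SPA, against 45.2, 46.8, 24.6 and 23.4 CPM in PF (edgeR adjusted p = 0.0111 in the 8-library fit), on the other side.

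Of 52 vesicle release genes Cplx1 and Syt1 were called, and in the 8-library fit 5 passed with SPA above and 4 with SPA below. Rab3b, a vesicle GTPase, had 131, 68.7, 96.2 and 69.0 CPM in SPA, against 2.81, 9.96, 1.34 and 5.91 CPM in PF (edgeR adjusted p = 0.000168 in the 8-library fit), and its relative Rab3a had 345 against 526 CPM as SPA and PF means. Syt10, a calcium sensor of growth factor release in olfactory bulb neurons, had 87.7, 35.1, 75.9 and 50.2 CPM in SPA, against 9.61, 5.50, 13.8 and 8.72 CPM in PF (edgeR adjusted p = 0.000377 in the 8-library fit). The vesicle glycoprotein Sv2c stood at 18.8 ± 9.22 CPM in SPA and 2.07 ± 1.46 CPM in PF (edgeR adjusted p = 0.00447 in the 8-library fit). Levels of different genes in CPM are not scaled by length and are not compared here. Among 26 synaptic organisers Lgi3 was called, and of 24 in the 8-library fit 6 passed with SPA above and 1 with SPA below. Cbln4, a secreted partner of neurexins and DCC, had 334, 359, 332 and 226 CPM in SPA, against 53.1, 64.2, 63.6 and 55.5 CPM in PF (edgeR adjusted p = 5.17e-06 in the 8-library fit). Its relative Cbln2 had 42.0, 29.3, 42.9 and 32.8 CPM in SPA, against 7.99, 0, 4.68 and 4.15 CPM in PF (edgeR adjusted p = 0.0217 in the 8-library fit). C1ql3, a secreted ligand at mossy fibre and amygdala synapses, had 279, 316, 321 and 141 CPM in SPA, against 99.6, 75.4, 69.4 and 99.3 CPM in PF (edgeR adjusted p = 0.000604 in the 8-library fit). Bdnf, a neurotrophin, stood at 127 ± 14.9 CPM in SPA and 76.7 ± 20.2 CPM in PF (edgeR adjusted p = 0.0433 in the 8-library fit). SPA lay above PF in every library for each of these 4 secreted proteins, and their edgeR adjusted p in the fit of all libraries was 0.565 for Cbln2, 0.742 for Cbln4, 0.927 for C1ql3 and 1 for Bdnf.

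**Figure D4:**
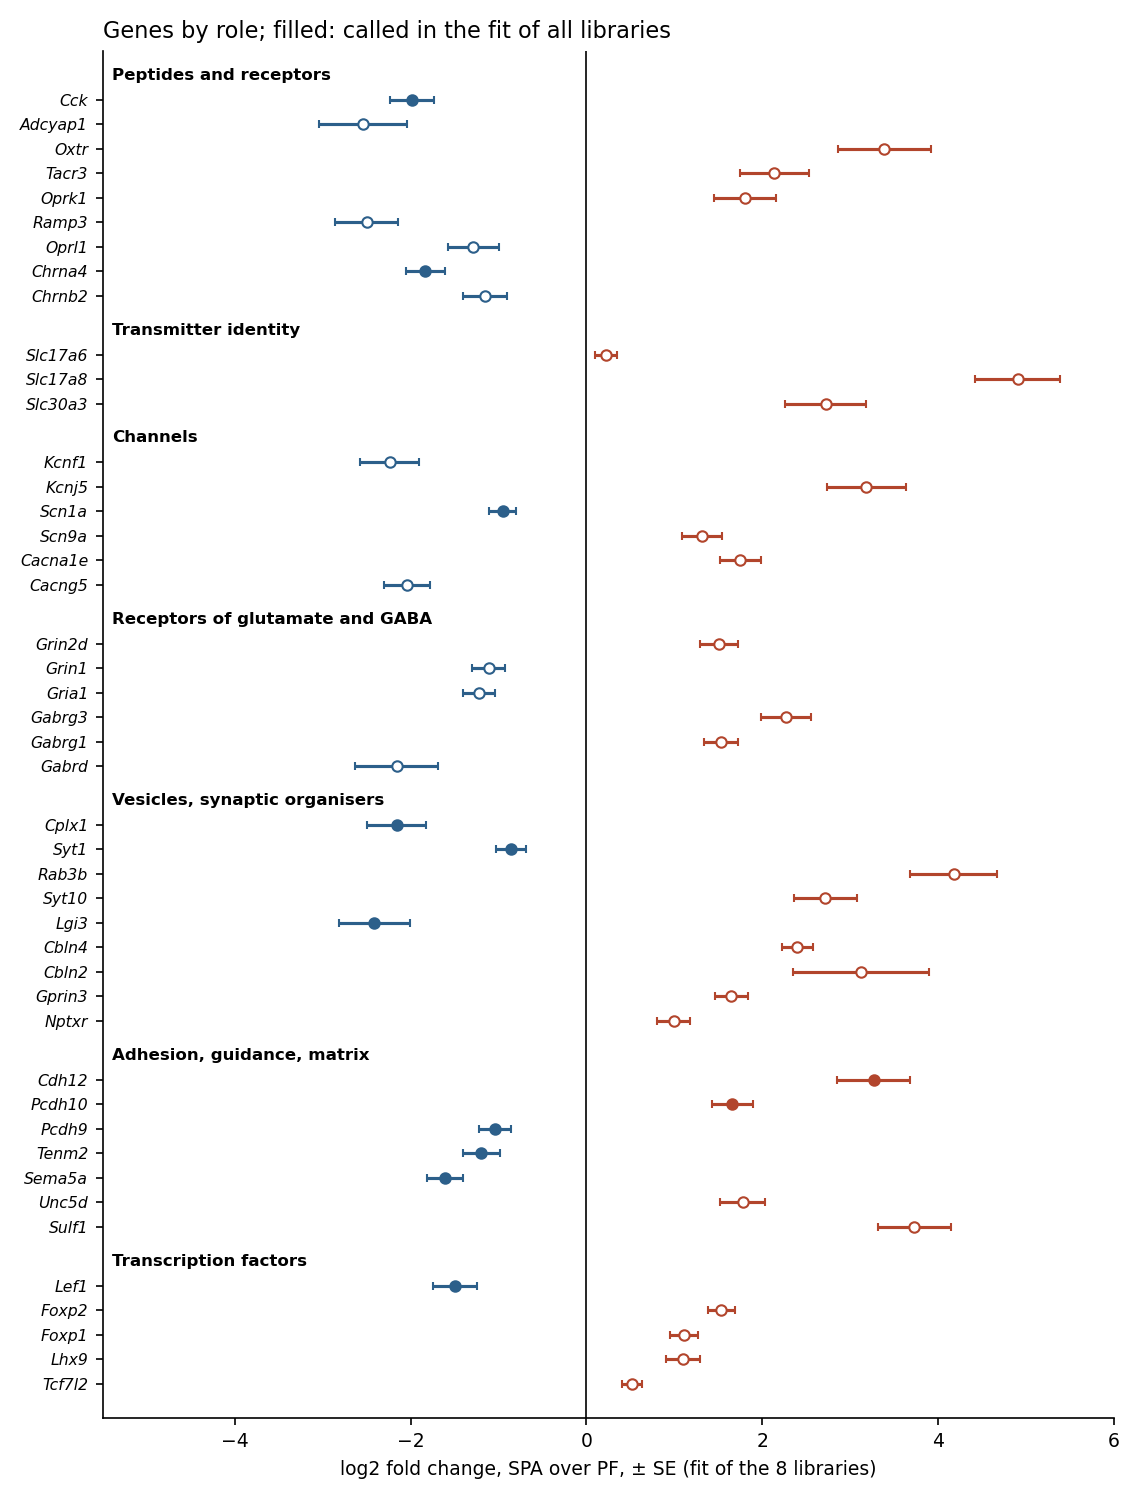
Log2 fold change of SPA over PF with its SE from the fit of the 8 libraries, for genes grouped by role. Filled points are genes called in the fit of all 120 libraries, open points are not, and values right of 0 are higher levels in SPA.

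Of 94 adhesion genes measured, Cdh12 and Pcdh10 were called higher in SPA and Pcdh9 and Tenm2 lower, and of 89 in the 8-library fit 16 passed with SPA above and 9 with SPA below. Cntnap5a, a contactin-associated protein, had 37.8, 28.7, 57.9 and 20.98 CPM in SPA, against 2.90, 0.0948, 3.19 and 11.3 CPM in PF (edgeR adjusted p = 0.0237 in the 8-library fit). Pcdh18 had 54.1, 81.6, 72.5 and 71.9 CPM in SPA, against 13.1, 1.14, 7.56 and 24.9 CPM in PF (edgeR adjusted p = 0.0109 in the 8-library fit). Opcml, an IgLON protein, had 135, 214, 247 and 147 CPM in SPA, against 451, 484, 511 and 341 CPM in PF (edgeR adjusted p = 0.000997 in the 8-library fit), on the other side. Of 50 axon guidance genes in that fit 8 passed with SPA above and 4 with SPA below. The netrin receptor Unc5d had 91.7, 89.1, 105 and 58.9 CPM in SPA, against 32.2, 19.3, 26.1 and 22.6 CPM in PF (edgeR adjusted p = 0.000528 in the 8-library fit). The ephrin Efnb2 stood at 47.3 ± 8.23 CPM in SPA and 11.4 ± 5.74 CPM in PF (edgeR adjusted p = 0.00483 in the 8-library fit). The ephrin Efnb3 stood at 18.5 ± 8.29 CPM in SPA and 2.32 ± 2.40 CPM in PF (edgeR adjusted p = 0.0349 in the 8-library fit). Unc5d, Efnb2 and Efnb3 were above PF in every SPA library. Of 48 matrix genes Fras1 was called, and of 41 in the 8-library fit 4 passed with SPA above and 2 with SPA below. In this list Sulf1, a sulfatase that trims heparan sulfate, had 259.5, 157, 149.9 and 134 CPM in SPA, against 19.5, 3.65, 9.98 and 19.6 CPM in PF (edgeR adjusted p = 0.000107 in the 8-library fit). Tnr, tenascin R, stood at 422 ± 109 CPM in SPA and 206 ± 21.8 CPM in PF (edgeR adjusted p = 0.0024 in the 8-library fit). Hapln4, a link protein of perineuronal nets, stood at 15.5 ± 5.69 CPM in SPA and 60.8 ± 32.5 CPM in PF (edgeR adjusted p = 0.00477 in the 8-library fit).

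Of 38 diencephalic transcription factors in the 8-library fit 7 passed with SPA above and 2 with SPA below, with a median log2 difference of 0.21 over the 41 measured. Foxp2, a forkhead factor of the caudal thalamus and striatum, had 648, 676, 609 and 434 CPM in SPA, against 182, 217, 202 and 214 CPM in PF (edgeR adjusted p = 4.65e-05 in the 8-library fit). Foxp1 had 506, 471, 447 and 398 CPM in SPA, against 162, 271, 188 and 219 CPM in PF (edgeR adjusted p = 0.000653 in the 8-library fit). Lhx9, a LIM homeobox factor of caudal and dorsal thalamus, had 225, 222, 249 and 154 CPM in SPA, against 111, 71.3, 101 and 113 CPM in PF (edgeR adjusted p = 0.00214 in the 8-library fit). These 3 factors were above PF in every SPA library. Rorb stood at 676 ± 142 CPM in SPA and 400.02 ± 65.4 CPM in PF (edgeR adjusted p = 0.0107 in the 8-library fit). Satb1 stood at 58.1 ± 14.3 CPM in SPA and 27.5 ± 1.95 CPM in PF (edgeR adjusted p = 0.0172 in the 8-library fit). For Foxp1 the log2 difference from the 5 other groups was 1.27 in SPA (edgeR adjusted p = 0.00392) and 0.15 in PF (edgeR adjusted p = 1). Of 26 calcium-binding genes in the 8-library fit 4 passed with SPA above, among them Necab2 (81.4 ± 15.5 CPM in SPA and 35.9 ± 12.1 CPM in PF), and 3 with SPA below, among them Calm3 (199 ± 29.5 CPM in SPA and 348 ± 9.90 CPM in PF). Of 47 RGS and G protein genes Rgs16 and Prkcd were called, and of 45 in the 8-library fit 6 passed on each side. Of 55 cAMP and cGMP genes Pde7b was called, and of 53 in the 8-library fit 2 passed with SPA above and 5 with SPA below. Pde1a, a calmodulin-dependent phosphodiesterase, had 0, 3.67, 0.562 and 2.40 CPM in SPA, against 32.4, 35.9, 22.1 and 29.7 CPM in PF (edgeR adjusted p = 0.00511 in the 8-library fit). Akap5, an anchor of protein kinase A at synapses, had 41.7, 30.8, 46.8 and 27.5 CPM in SPA, against 10.3, 6.83, 11.6 and 11.5 CPM in PF (edgeR adjusted p = 0.00266 in the 8-library fit). The catalytic subunit Prkacb stood at 829 ± 59.7 CPM in SPA and 465 ± 59.2 CPM in PF (edgeR adjusted p = 0.000805 in the 8-library fit).

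The genes of oxidative phosphorylation had lower levels in SPA than in PF in many members, and 0 of 89 were called in the fit of all libraries. Of 88 in the 8-library fit, 0 passed with SPA above and 41 with SPA below, and every SPA library was below every PF library in 50 of 89 and above in 0. The median log2 difference was -0.79, and -0.30 with the offset for length described below. Summed over the list, SPA libraries had 4981, 5424, 5421 and 5776 CPM, against 9126, 9746, 9802 and 9354 CPM in PF libraries (exact two-sided permutation p = 0.02857, adjusted p = 0.07347 over 18 measures). Cox4i1, of complex IV, had 98.5, 105, 101 and 96.6 CPM in SPA, against 285, 319, 262 and 288 CPM in PF (edgeR adjusted p = 2.16e-05 in the 8-library fit). Ndufa4 had 79.4, 92.2, 103 and 78.6 CPM in SPA, against 175, 224, 158 and 179 CPM in PF (edgeR adjusted p = 0.0013 in the 8-library fit). Atp5a1, of the ATP synthase, had 291, 275, 342 and 401 CPM in SPA, against 582, 495, 894 and 584 CPM in PF (edgeR adjusted p = 0.00357 in the 8-library fit). Each was below PF in all SPA libraries. The sum was 9040.4 CPM or more in every library of PVT, IMD, PCN, CM and CL, whose dates include that of PF and another, so SPA was below the other 6 groups with this tracer and injection site. Elsewhere in the series the VPMpc libraries had 3863 to 6203 CPM and the LP libraries 4325 to 6191 CPM, and the SPA values fall within both ranges. The lowest libraries of RE, PO and MD, at 5015, 5139 and 5292 CPM, also lay within the SPA range. So did the AM library labelled by AAV, at 5496 CPM.

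The level of short genes also differed. Among genes of at least 10 CPM the median log2 difference was -0.63 for 122 genes with summed exons under 1000 bases, -0.48 for 661 of 1000 to 2000 bases, -0.21 for 2428 of 2000 to 4000, -0.02 for 3836 of 4000 to 8000 and 0.13 for 2141 longer ones. Genes under 2000 bases, without ribosomal RNA genes, summed to 37030 to 41519 CPM in SPA and 47195 to 54911 CPM in PF. Within each length class a larger share of oxidative phosphorylation genes than of other genes lay below PF in all libraries, at 66.67% of 18 against 27.88% of 104 under 1000 bases, 66.67% of 30 against 24.09% of 631 from 1000 to 2000, and 51.43% of 35 against 10.33% of 8370 above. With an offset that removes the trend with length, the 8-library fit called 22 of the list with SPA below and 1 with SPA above, where 3.46% and 3.36% of all genes were called. In the fit of all libraries, the offset moved the median log2 difference of the list from -0.79 to -0.30. The median over all genes tested moved from 0.034 to 0.16. The part of transcript length in the single genes was not tested otherwise, and 44 of the 51 calls kept their direction and call with the offset in the fit of all libraries.

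**Figure D5:**
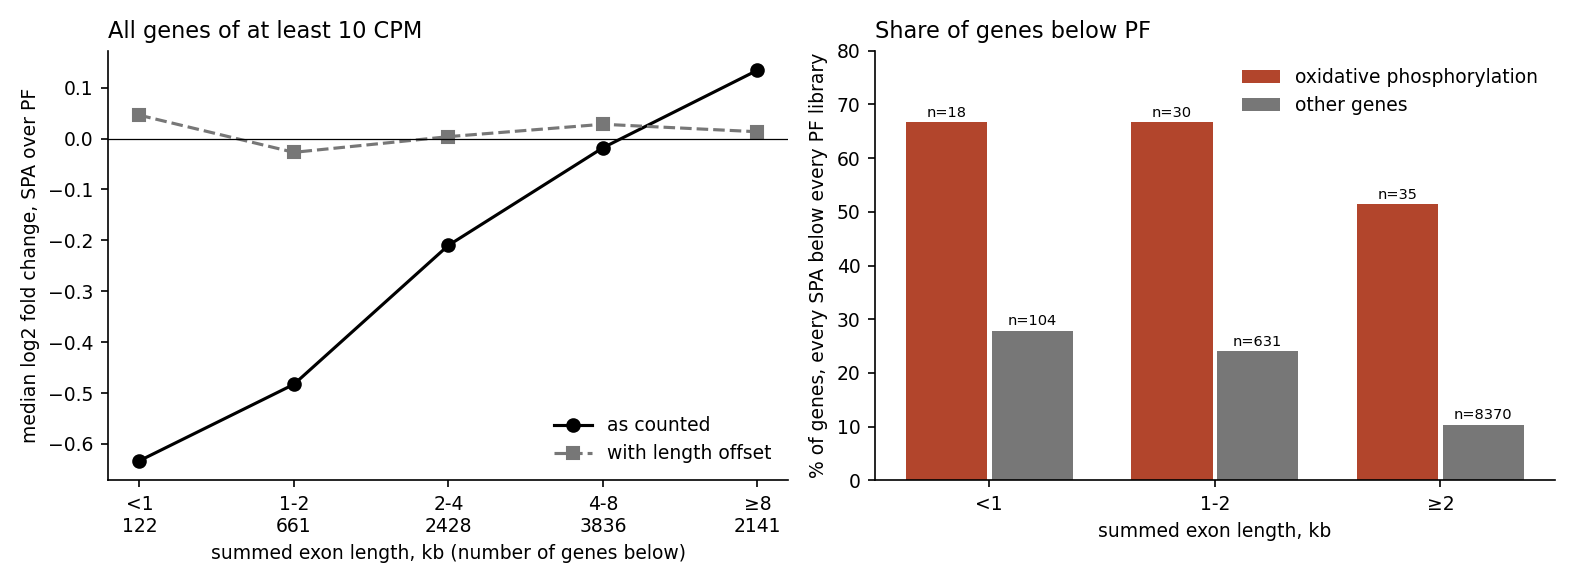
Left, median log2 fold change of SPA over PF by summed exon length, as counted (circles) and with a length offset (squares), for genes of at least 10 CPM. Right, share of genes whose 4 SPA libraries all lie below the 4 PF libraries, for oxidative phosphorylation genes and other genes by exon length, with 66.67%, 66.67% and 51.43% against 27.88%, 24.09% and 10.33%.

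Cytoskeletal genes of the axon held Stmn3 as their 1 call among 46, and in the 8-library fit of 45 they passed 5 times with SPA above and 11 times with SPA below. The neurofilament Nefh stood at 32.5 ± 8.34 CPM in SPA and 70.2 ± 9.89 CPM in PF (edgeR adjusted p = 0.0114 in the 8-library fit). The tubulin Tubb3 stood at 79.9 ± 27.1 CPM in SPA and 219.8 ± 70.5 CPM in PF (edgeR adjusted p = 0.00173 in the 8-library fit). The tubulin Tubb4a stood at 1108 ± 356 CPM in SPA and 682 ± 55.2 CPM in PF (edgeR adjusted p = 0.03 in the 8-library fit). Immediate early genes passed once in 19, with Bdnf. Of 16 genes that mark striatum-projecting thalamus in this series, a list chosen on these libraries and thus no independent evidence, 0 were called in the fit of all libraries, and 5 passed with SPA above and 0 with SPA below in the 8-library fit. They were Lypd6 (168 ± 56.4 CPM in SPA and 37.0 ± 12.1 CPM in PF), Npy2r, Tacr3, Slc30a3 and Kcnip1 (65.1 ± 12.3 CPM in SPA and 33.8 ± 6.76 CPM in PF).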

How the data were processed

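RNA was measured by bulk RNA-seq in pools of manually sorted, retrogradely labelled neurons. The authors deposited a table of raw counts per gene for 120 libraries in 24 groups and 16538 genes, and a metadata table whose mapping rate is given as a fraction by the authors. Per the submitters' processing notes, cutadapt 1.16, STAR 2.5.3a, featureCounts 1.52 and the mouse build mm10 were used. Per the labels' protocols, cDNA was made and amplified with an Ovation RNA-seq kit from total RNA; whether counting used strand is not given in the sources used here, so overlapping and antisense genes cannot be told apart.

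Groups were taken from the titles. Counts were fitted with edgeR 4.0.16 (R 4.3.3, limma 3.58.1) by the quasi-likelihood test, with 1 coefficient per group over all libraries, TMM scaling and filterByExpr (minimum count 10, minimum total 15). P-values were adjusted over all genes tested by Benjamini-Hochberg. SE is the log2 fold change divided by the square root of F. DESeq2 1.42.0 was an alternative. The fit was tested on simulated data, and the outcome is not given here. Python 3.11.15, pandas 2.3.3, scipy 1.17.1 and matplotlib 3.10.9 were used for the rest.

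Named genes were the 15 largest called changes in each direction with at least 10 CPM and no overlap, up to 4 called members per list and direction, the supplied markers and identity genes, and further list members with values only. Gda, Prkcd, Epha6, Rorb, Satb1, Npy2r, Nmbr, C1ql3, Cox4i1, Ndufa4 and Atp5a1 and the other called genes outside the rule were chosen after their values were seen. Some genes, 1 called gene among them, are not reported here. Members and lists were chosen with earlier results of these data known. The ribosomal and length alternatives were also added after seeing the data. Libraries recorded from the same animal are not independent. P-values of the 8-library fit rest on the spread between these pools. Those of the fit of all libraries rest on 1 spread per gene shared over 24 groups. The 8 libraries held 15775873 to 18958844 counts, no pair was identical, and floors of 3 counts cover counting error only. Symbols and sequences are from the deposited tables and RefSeq (GRCm38.p6).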

Additional observations from a re-analysis of the deposited data

Results flagged for a closer look

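Of 276 groups of 4 libraries examined gene by gene, 12 held a library that stood apart from the other 3 by Dixon's test at the 95% level, and chance gives about 1 in 20. Within SPA, Plekhg1 had 137.7 CPM in SPA 4, against 64.26 to 72.44 CPM in the other SPA libraries, and Hcn2 had 6.585 CPM in SPA 4, against 3.794 to 4.013 CPM. SPA 1 stood apart for Syt1, with 548.1 CPM against 979.6 to 1060.0 CPM, and for Nptxr, with 2322 CPM against 1252 to 1373 CPM. SPA 3 stood apart for Gda, with 13.48 CPM against 0 to 0.5174 CPM. Within PF, PF 4 had 27.55 CPM of Arhgap20, against 22.04 to 22.48 CPM in the other PF libraries, 39.74 CPM of Lgi3, against 35.83 to 36.03 CPM, and 1.245 CPM of Irs4, which had no read in the others. PF 3 had 113.8 CPM of Slc25a5, against 124.6 to 126.2 CPM, and 59.42 CPM of Adarb2, against 20.02 to 26.22 CPM. PF 2 had 282.8 CPM of Rgs16, against 233.3 to 237.7 CPM, and 201.5 CPM of Dnajb1, against 111.6 to 115.7 CPM.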

How the results depend on the processing

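The number of calls between SPA and PF depended on which libraries shared the estimate of spread. Against 51 calls in the fit of all libraries (7 higher and 44 lower in SPA), the 7 striatum-labelled AAV groups alone gave 620 (180 higher, 440 lower), the SPA and PF libraries alone 1084 (422 higher, 662 lower), the same with the length offset 905 (446 higher, 459 lower), DESeq2 252 (127 higher, 125 lower) and the newer quasi-likelihood method 149 (58 higher, 91 lower). With the recorded animal as a block the SPA and PF libraries gave 410 calls (160 higher, 250 lower), from the 4 libraries of 2 animals and 1 residual degree of freedom, and the record of 1 of these animals is doubtful, as its libraries differ in age and in hours to freezing. Whether the replicate numbers pair the libraries is not settled. Same-numbered libraries share the recorded hours to freezing in all 4 pairs and the animal in 1, and no label says what a number marks. The correlations of same-numbered SPA and PF libraries were 0.0901, 0.0319, 0.0238 and 0.1241 over 8705 genes, against -0.0691 to 0.0335 for other pairs. With the replicate block there were 1104 calls (443 higher, 661 lower). Leaving out 1 library gave 23 to 48 calls, with 2 to 7 higher and 19 to 41 lower in SPA. Against the 5 other groups, SPA had 892 calls in the fit of all libraries, 2266 with the 7 groups alone, 1551 with the length offset and 471 to 713 with an SPA library left out. PF had 150 calls, 31 by the newer method, 300 by DESeq2 and 59 to 130 with a PF library left out. The log2 difference of Gbx2 turned to 0.0572 with the length offset and 0.0485 with it in the 8 libraries. That of Calca was between -0.0289 and 0.95 with a library left out, and turned without PF 2 or PF 3. That of Rtl1 was between -0.0320 and 0.37, and was below 0 without PF 3 or PF 4. None of these 3 genes was called. The causes were not tested.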

Other observations

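Genes outside the lists, chosen after their values were seen, also differed without overlap. Tmem255a, a transmembrane protein, had 274, 168, 188 and 88.3 CPM in SPA, against 8.28, 2.70, 6.02 and 13.2 CPM in PF (edgeR adjusted p = 0.104, and 2.93e-05 in the 8-library fit). Every SPA library was several times above the highest PF library. Irs4, an insulin receptor substrate of hypothalamic neurons, had 39.3, 34.7, 13.4 and 12.51 CPM in SPA, against 0, 0, 0 and 1.25 CPM in PF (edgeR adjusted p = 0.0027 in the 8-library fit). Nkain3, a protein that binds the sodium pump, had 34.5, 18.0, 27.2 and 15.9 CPM in SPA, against 0.238, 0.806, 0 and 0 CPM in PF (edgeR adjusted p = 0.000581 in the 8-library fit). Prokr2, the prokineticin receptor, had 101, 66.3, 81.8 and 29.4 CPM in SPA, against 24.2, 0.616, 6.28 and 7.57 CPM in PF (edgeR adjusted p = 0.0181 in the 8-library fit).

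The imprinted neighbours of Dlk1 on chromosome 12 overlapped between the groups. Meg3 stood at 4224 ± 743 CPM in SPA and 2674 ± 1600.3 CPM in PF, Rian at 948 ± 131 CPM in SPA and 801 ± 153 CPM in PF, Mirg at 69.8 ± 12.02 CPM in SPA and 60.0 ± 32.6 CPM in PF and Rtl1 at 16.4 ± 1.08 CPM in SPA and 14.8 ± 6.77 CPM in PF (SD, n = 4 each). None passed in the 8-library fit, with edgeR adjusted p of 0.2, 0.372, 0.747 and 0.868. Beside the called chaperone Hspa8, the chaperones Dnajb1, Hspa5 and Hsp90ab1 stood at 69.0 ± 16.99 CPM in SPA and 135 ± 44.3 CPM in PF, 237 ± 43.4 CPM in SPA and 322 ± 42.0 CPM in PF and 1001 ± 64.4 CPM in SPA and 1259 ± 37.8 CPM in PF, each without overlap (edgeR adjusted p = 0.021, 0.102 and 0.0626 in the 8-library fit). Hsp90aa1 overlapped and stood at 676 ± 98.6 CPM in SPA and 623 ± 53.1 CPM in PF (edgeR adjusted p = 0.672 in the 8-library fit).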
